A study of Sus scrofa with 6 samples.

Results

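The genes described here move high-energy phosphate through the heart muscle cell. They are 3 creatine kinase genes (CKM, CKB and CKMT2), 3 genes for making and taking up creatine (GATM, GAMT and SLC6A8) and 3 adenylate kinase genes (AK1, AK3 and AK4). They were taken by gene symbol from the deposited expression table, in which all 9 were present among 13288 genes. The table comes from ventricular tissue of male Tibetan minipigs, 3 of them with sham surgery and 3 with descending aortic constriction (DAC), euthanized 12 weeks after surgery. The sham group had its chest opened but no constriction, whereas in the DAC group sutures were tightened around the descending aorta to load the left ventricle with pressure. Both groups shared the breed, the anaesthesia and the thoracotomy, penicillin is described as part of the surgical procedure, and the animals carry no named transgene. Neither their age nor which ventricle the RNA came from is given in the sources used here, and each library is 1 minipig, named sham replicates 1 to 3 and DAC replicates 4 to 6.

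Heart muscle keeps only a small store of ATP and refills it continuously. Mitochondrial creatine kinase uses ATP from the respiratory chain to charge creatine into phosphocreatine, and cytosolic creatine kinase at the myofilaments and ion pumps turns phosphocreatine back into ATP. Adenylate kinases interconvert ATP, ADP and AMP, which adds a second route for phosphate transfer and makes AMP, the signal read by AMP-activated protein kinase. Creatine itself is built by GATM and then GAMT, mostly in kidney and liver, and enters the heart through the transporter SLC6A8.

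Expression was measured as FPKM, fragment numbers divided by transcript length and by library size, so levels of different genes can be set side by side. Fold changes are differences, DAC minus sham, between group means of log2(FPKM + 1), with the standard error (SE), an unadjusted P and an adjusted P from limma with Benjamini-Hochberg adjustment over the 11029 genes tested. A gene was counted as differentially expressed (a DEG) at an unadjusted P under 0.05, whatever the size of its change. Read depth is unknown, and 3 minipigs against 3 cannot give an exact two-sided permutation P under 0.10. Each library's summed FPKM lay between 281377 and 308771. DAC replicate 5 stood apart, with 32.8% of its summed FPKM in the 13 mitochondrially encoded genes, against 27.1% to 27.2% in the other DAC libraries and 24.0% to 25.3% in the sham libraries. The fold changes of CKM and CKB and the share of CKMT2 are also given without this library.

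GAMT and CKMT2 were the members that were downregulated DEGs in the DAC myocardium, and no member was an upregulated DEG. GAMT fell by 22.0% and CKMT2 fell by 24.9% in mean FPKM. These 2 downregulated DEGs among 9 members tested stand beside 5.27% downregulated DEGs over all genes tested, and upregulated DEGs made up 3.25% and both directions together 8.51%. The mean of log2(FPKM + 1) was lower in the DAC group for 7 of the 9 members and for 53.4% of all genes, and the median log2 fold change was -0.20 over the members and -0.016 over all genes. No member had an adjusted P under 0.05, as was the case for all 11029 genes, and the lowest adjusted P among the members was 0.508. In GAMT and CKM, all DAC minipigs lay below all sham minipigs, which was found in 8.91% of all genes. In no member did all DAC minipigs lie above all sham minipigs, against 6.01% of all genes. The other 7 members overlapped between the groups.

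**Figure D1:**
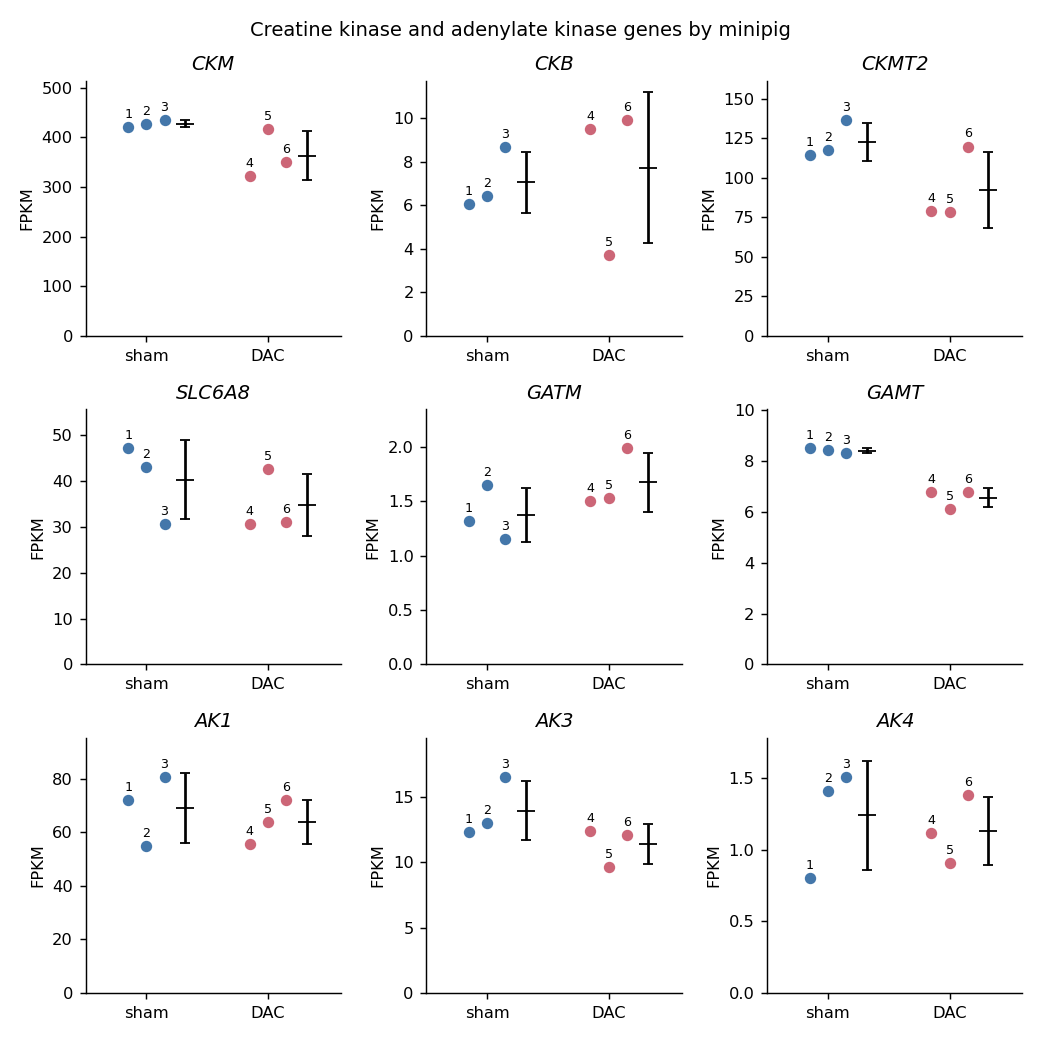
Expression of the 9 members in FPKM (vertical axes, from 0) for each of 3 sham (blue) and 3 DAC (red) minipigs, numbered by replicate; black bars give the group mean and SD. GAMT and CKM are the panels without overlap between the groups, and CKM in DAC replicate 5 (417 FPKM) lies just below the lowest sham minipig (421 FPKM).

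Creatine synthesis takes 2 steps. GATM, which makes guanidinoacetate from arginine and glycine, was expressed at a low level in this tissue, at the 24.5th percentile of mean FPKM in the table. Its expression (ENSSSCG00000004672, chromosome 1 from 126361945 to 126380872, build susScr11) was 1.32, 1.65 and 1.15 FPKM in sham replicates 1 to 3 and 1.504, 1.53 and 1.99 FPKM in DAC replicates 4 to 6. The groups overlapped, with sham replicate 2 above DAC replicates 4 and 5. The log2 fold change of GATM was 0.17 (SE 0.13, 95% interval -0.14 to 0.49, adjusted P = 0.728 from limma), and it ran from 0.090 without DAC replicate 6 to 0.27 with a pseudocount of 0.1.

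GAMT methylates guanidinoacetate to creatine, and it had the lowest P among the members. GAMT (ENSSSCG00000023142, chromosome 2 from 77076566 to 77079766) was at 8.50, 8.43 and 8.31 FPKM in the sham minipigs and 6.77, 6.12 and 6.80 FPKM in the DAC minipigs. The sham values lay within a very narrow band, and every DAC value lay beneath it. Its mean was 8.41 ± 0.0982 FPKM in sham and 6.56 ± 0.383 FPKM in DAC animals (SD, n = 3 each). The log2 fold change of GAMT was -0.32 (SE 0.096, 95% interval -0.54 to -0.090, unadjusted P = 0.0128 and adjusted P = 0.508 from limma, exact permutation P = 0.10). GAMT stayed a DEG under all 15 alternatives tried, including the omission of each minipig in turn, where its log2 fold change was between -0.34 and -0.27. In the deposited table the whole GAMT interval lies inside that of DAZAP1, an RNA-binding protein gene on the opposite strand with a mean of 29.9 FPKM over the 6 libraries. In the RefSeq annotation of Sscrofa11.1 no gene overlaps GAMT, but all 3186 bases of its RefSeq interval lie inside DAZAP1 in the table. The sources used here do not say whether reads were assigned by strand. DAZAP1 had a log2 fold change of 0.071 (SE 0.11, adjusted P = 0.876 from limma).

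The level of GAMT relative to GATM within each minipig, a ratio chosen after the values were seen, was 6.44, 5.11 and 7.20 in the sham group and 4.50, 3.99 and 3.42 in the DAC group. The groups did not overlap in this ratio, which cancels the scaling of a library but rests on the low values of GATM.

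SLC6A8 carries creatine into the cell. SLC6A8 (ENSSSCG00000012771, chromosome X from 124294856 to 124453249) was at 47.2, 43.1 and 30.7 FPKM in the sham minipigs and 30.6, 42.5 and 31.1 FPKM in the DAC minipigs. Sham replicate 3 lay with the low DAC values and DAC replicate 5 with the high sham values. The log2 fold change was -0.20 (SE 0.20, 95% interval -0.67 to 0.26, adjusted P = 0.784 from limma), and it ran from -0.082 without sham replicate 1 to -0.38 without sham replicate 3. Its interval in the table spans 158394 bases, against 16901 bases for SLC6A8 in the RefSeq annotation of Sscrofa11.1. The longer interval covers ATP2B3 and CCNQ and shares 593 bases with BGN, the matrix proteoglycan biglycan, on the same strand. BGN was an upregulated DEG, at 28.9 ± 3.01 FPKM in sham and 56.2 ± 19.2 FPKM in DAC animals (SD, n = 3 each). How the shared stretch was counted is not given in the sources used here, and its part in the SLC6A8 values was not tested.

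Among the creatine kinases, CKM, the muscle-type cytosolic enzyme bound in part to the M-band, was by far the most abundant. CKM (ENSSSCG00000036132, chromosome 6 from 51699165 to 51714813) was at 421, 427 and 435 FPKM in the sham minipigs and 323, 417 and 350 FPKM in the DAC minipigs. It ranked 64 in mean FPKM among all genes of the table. The sham libraries differed by little, whereas the DAC libraries spread from a value close to the sham level in replicate 5 down to the lowest in replicate 4. The group means were 428 ± 7.25 FPKM and 364 ± 48.5 FPKM (SD, n = 3 each), a difference in means of -15.0%. The log2 fold change of CKM was -0.24 (SE 0.12, 95% interval -0.53 to 0.041, unadjusted P = 0.0833 and adjusted P = 0.615 from limma), so CKM was not a DEG although its groups did not overlap. Without DAC replicate 5, the log2 fold change was -0.35 and CKM was a DEG (unadjusted P = 0.0120, adjusted P = 0.511 from limma). Over all alternatives, the unadjusted P of CKM was between 0.0120 and 0.206 from limma. The table's interval of CKM shares 1390 bases with MARK4, a kinase gene on the opposite strand. MARK4 was also lower in every DAC minipig than in every sham minipig, at 7.29 ± 0.701 FPKM in sham and 6.03 ± 0.0673 FPKM in DAC animals (SD, n = 3 each), with an unadjusted P of 0.0587 (adjusted P = 0.593 from limma). The RefSeq interval of CKM shares no bases with that of MARK4 in the table, whereas the RefSeq interval of MARK4 overlaps that of CKM in the table.

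CKMT2 is the sarcomeric mitochondrial creatine kinase, which sits between the mitochondrial membranes and couples the export of ATP to phosphocreatine formation. CKMT2 (ENSSSCG00000014128, chromosome 2 from 89796474 to 89832991) was at 114, 118 and 137 FPKM in the sham minipigs and 78.8, 78.2 and 120 FPKM in the DAC minipigs. DAC replicates 4 and 5 lay well under the sham range and DAC replicate 6 lay inside it. Mean CKMT2 was 123 ± 12.04 FPKM in sham and 92.3 ± 23.9 FPKM in DAC animals (SD, n = 3 each). CKMT2 had a log2 fold change of -0.43 (SE 0.18, 95% interval -0.87 to -8.1e-05), the largest in size among the members. Its unadjusted P of 0.04997 lay just inside the DEG threshold (adjusted P = 0.587 from limma, exact permutation P = 0.300). CKMT2 was lower in the DAC group under all 15 alternatives, but it remained a DEG in only 4 of them. With 1 minipig left out it was a DEG only without DAC replicate 6, with a log2 fold change of -0.64 (unadjusted P = 0.00246, adjusted P = 0.409 from limma), while without any other single minipig the log2 fold change was between -0.48 and -0.33.

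CKB encodes the brain-type cytosolic creatine kinase, which is the main form in the embryonic heart and in many tissues other than muscle. CKB (ENSSSCG00000021220, on a scaffold not placed on a chromosome) was at 6.06, 6.44 and 8.67 FPKM in the sham minipigs and 9.50, 3.72 and 9.91 FPKM in the DAC minipigs. The DAC group held both the highest values and the lowest one. CKB had a log2 fold change of 0.030 (SE 0.33, 95% interval -0.74 to 0.80, adjusted P = 0.984 from limma). Without DAC replicate 5 it was 0.42 and CKB was an upregulated DEG (unadjusted P = 0.0408, adjusted P = 0.565 from limma), whereas without DAC replicate 4 it was -0.15 and without DAC replicate 6 it was -0.18. The direction of CKB therefore rests on single minipigs. DAC replicate 5 is also the library that stood apart in its mitochondrially encoded share, and the part of that in the CKB value was not tested.

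CKB made up 1.42%, 1.49% and 1.95% of the summed FPKM of CKM and CKB in the sham minipigs and 2.85%, 0.883% and 2.75% in the DAC minipigs. The share was higher than in any sham minipig in DAC replicates 4 and 6 and lower than in any in DAC replicate 5. CKMT2 held 21.1%, 21.3% and 23.5% of the summed FPKM of the 3 creatine kinase genes in the sham minipigs and 19.1%, 15.7% and 24.97% in the DAC minipigs. The sham minipigs were alike in this balance, while the DAC minipigs lay on both sides of them. The difference in mean CKMT2 share, DAC minus sham, was -2.07 percentage points in all 6 minipigs and 0.060 without DAC replicate 5. The CKM level per CKMT2 level was between 3.19 and 3.68 in the sham group and was 4.10, 5.34 and 2.92 in DAC replicates 4 to 6. The summed FPKM of the 3 genes, which is mostly CKM, was 541, 551 and 581 in the sham minipigs and 412, 499 and 480 in the DAC minipigs. In this sum the groups did not overlap.

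**Figure D2:**
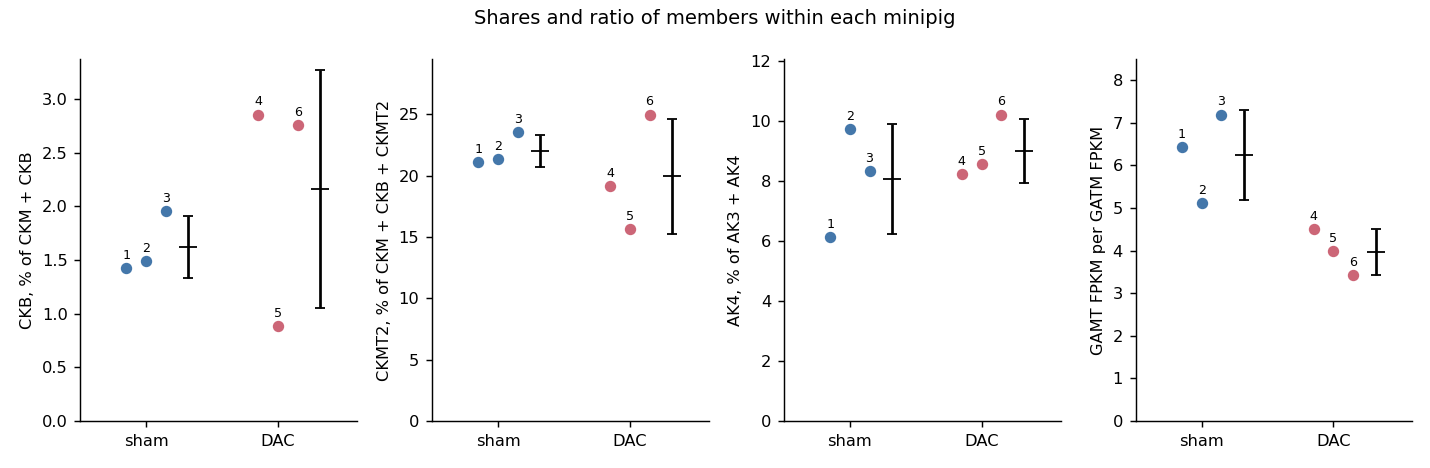
Shares in percent, and the GAMT to GATM ratio, computed from FPKM within each of 3 sham (blue) and 3 DAC (red) minipigs, numbered by replicate, with the group mean and SD in black. The CKB share of CKM plus CKB is 2.85% and 2.75% in DAC replicates 4 and 6 and 0.883% in DAC replicate 5, and the GAMT to GATM ratio is the panel in which the groups do not overlap.

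The adjusted P of the adenylate kinases was between 0.645 and 0.932 from limma, and none was a DEG. AK1, the cytosolic form abundant in muscle, had the highest level of the 3. AK1 (ENSSSCG00000005627, chromosome 1 from 268355032 to 268365598) was at 72.0, 54.8 and 80.8 FPKM in the sham minipigs and 55.6, 63.8 and 72.1 FPKM in the DAC minipigs. The lowest value of all belonged to sham replicate 2, and the DAC values fell entirely within the sham range. For AK1, the log2 fold change was -0.10 (SE 0.17, 95% interval -0.51 to 0.30).

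AK3 works in the mitochondrial matrix, where it uses GTP to phosphorylate AMP. AK3 (ENSSSCG00000023595, chromosome 1 from 217236482 to 217261370) was at 12.3, 13.0 and 16.6 FPKM in the sham minipigs and 12.4, 9.67 and 12.1 FPKM in the DAC minipigs. Only DAC replicate 4 exceeded the lowest sham value. For AK3, the log2 fold change was -0.27 (SE 0.15, 95% interval -0.62 to 0.085, unadjusted P = 0.116 and adjusted P = 0.645 from limma), and it was between -0.35 and -0.15 with 1 minipig left out. The intervals of AK3 and of CDC37L1 on the opposite strand share 19833 bases, and CDC37L1 had a log2 fold change of 0.14 (adjusted P = 0.757 from limma).

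AK4 is another enzyme of the mitochondrial matrix, with a sequence related to AK3. AK4 (ENSSSCG00000040337, chromosome 6 from 147177029 to 147257814) was at 0.805, 1.41 and 1.51 FPKM in the sham minipigs and 1.11, 0.904 and 1.38 FPKM in the DAC minipigs. The range of the DAC group lay within that of the sham group, and at this level the added 1 FPKM shrinks any fold change. For AK4, this difference was a log2 fold change of -0.062 (SE 0.17, 95% interval -0.45 to 0.33). AK4 made up between 6.13% and 9.75% of the summed FPKM of AK3 and AK4 in the sham minipigs and between 8.23% and 10.2% in the DAC minipigs, with overlap.

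In both groups the order of mean FPKM began with CKM, CKMT2, AK1, SLC6A8 and AK3, and ended with GATM and AK4. Within each group the ranges of these leading 5 genes did not overlap from one to the next. GAMT ranked above CKB in the sham group and below it in the DAC group, but their ranges overlapped in both. GATM and AK4 overlapped in the sham group and not in the DAC group.

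The members also differed in how alike the animals of one group were. The coefficient of variation (CV, SD over mean FPKM) within the sham group was 1.17% for GAMT and 1.70% for CKM, against a median of 12.2% over all genes tested. Of the genes tested, 0.988% had a lower sham CV than GAMT and 1.83% a lower one than CKM. In the DAC group the CV was 5.83% for GAMT and 13.3% for CKM, with a median of 14.7% over all genes. CKB had a CV of 19.9% in the sham group and 44.9% in the DAC group, and CKMT2 had 9.80% and 25.9%. With 3 animals a group these spreads are a description, and their difference was not tested. DAC replicate 5 held the lowest value of all 6 minipigs for 4 members, and sham replicate 3 held the highest for 5.

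**Figure D3:**
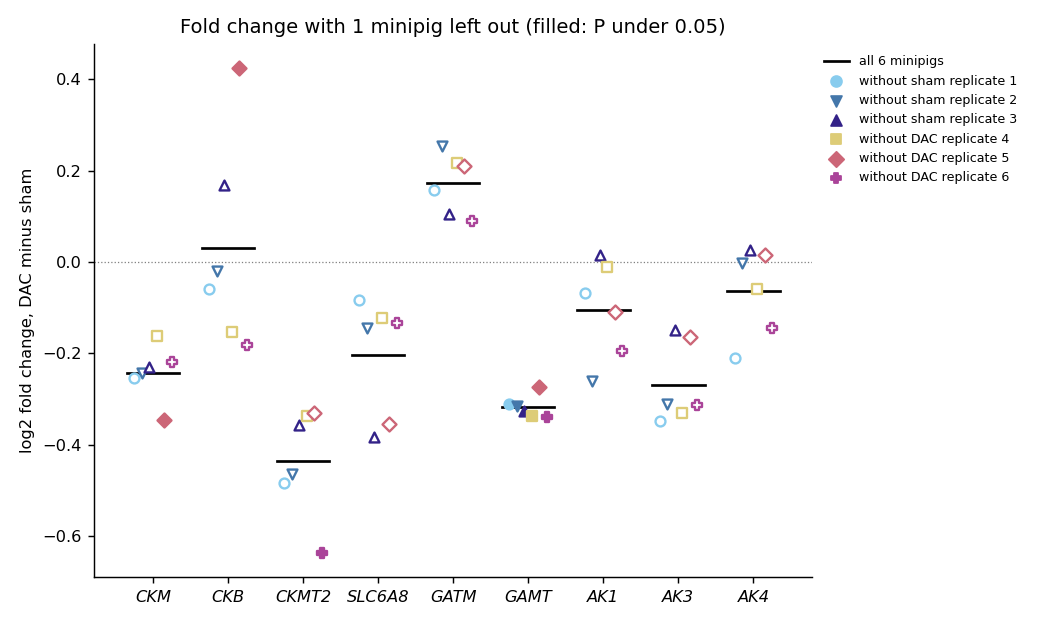
Log2 fold change of each member (vertical axis, DAC minus sham on the log2(FPKM + 1) scale) in all 6 minipigs (black line) and with 1 minipig left out (symbols, filled where the unadjusted P of limma is under 0.05). GAMT stays between -0.34 and -0.27 and is filled throughout, while CKB runs from -0.18 to 0.42.

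The other genes of the pathway, 37 tested of 54 symbols listed (some of them other names of the same gene), held 1 DEG. This was APRT, which salvages adenine to AMP, at 8.24, 10.7 and 7.41 FPKM in the sham minipigs and 7.35, 5.53 and 6.40 FPKM in the DAC minipigs. Every DAC value lay below the sham values, though DAC replicate 4 was only just below sham replicate 3. APRT had a log2 fold change of -0.39 (SE 0.16, unadjusted P = 0.0432 and adjusted P = 0.584 from limma). It was lower in the DAC group under all 15 alternatives but a DEG in 7 of them, and the omission of sham replicate 1 or 2 or of DAC replicate 5 or 6 was among the 8 that lost the call. Of the 37 genes, the mean was lower after DAC in 21, and their median log2 fold change was -0.051. The groups did not overlap in 5 of them, all lower in the DAC group, whereas over all genes 8.91% lay wholly lower and 14.9% did not overlap in either direction. Chosen after their values were seen, these were APRT, SLC25A4, VDAC3, HPRT1 and SLC29A1.

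Of the 6 genes tested for exchange of ADP and ATP across the mitochondrial membranes, none was a DEG and the mean was lower after DAC in 4. SLC25A4, the ADP/ATP carrier of heart and skeletal muscle that hands matrix ATP to CKMT2, was at 265, 234 and 252 FPKM in the sham minipigs and 168, 231 and 214 FPKM in the DAC minipigs. Its groups did not overlap, and DAC replicate 5 lay nearest the sham range, as it did for CKM. SLC25A4 had a log2 fold change of -0.30 (SE 0.14, unadjusted P = 0.0702 and adjusted P = 0.596 from limma). The channel gene VDAC3 was at 98.8 to 100.1 FPKM in the sham group and 86.5 to 94.9 FPKM in the DAC group (log2 fold change -0.15, adjusted P = 0.684 from limma).

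Among 16 genes tested for AMP, IMP and adenosine handling, APRT was the DEG and the mean was lower after DAC in 9. The nucleoside transporter SLC29A1 was at 28.8 to 31.2 FPKM in the sham group and 24.4 to 26.6 FPKM in the DAC group (log2 fold change -0.22, adjusted P = 0.592 from limma). The purine salvage gene HPRT1 was at 4.35 to 4.97 FPKM in the sham group and 4.09 to 4.34 FPKM in the DAC group (log2 fold change -0.10, adjusted P = 0.789 from limma). ADSS1, the muscle enzyme that returns IMP toward AMP, was named after its values were seen. It lies on the same unplaced scaffold as CKB, 933792 bases away, and this scaffold holds 49 genes of the table. A link between position and expression was not tested. ADSS1 was at 61.4, 48.6 and 70.2 FPKM in the sham minipigs and 27.8, 85.3 and 47.2 FPKM in the DAC minipigs. It was highest in DAC replicate 5, where CKB was lowest, and its log2 fold change was -0.29 (SE 0.37, adjusted P = 0.842 from limma).

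None of the 4 tested nucleoside diphosphate kinases was a DEG, and the most abundant, NME2, was at 88.7 ± 9.03 FPKM in the sham group and 80.4 ± 6.39 FPKM in the DAC group (SD, n = 3 each). None of the 9 tested genes of the methyl donor cycle and of arginine and ornithine use was a DEG in all 6 minipigs. The most abundant was OAT, ornithine aminotransferase, at 27.7 ± 6.20 FPKM in the sham group and 38.5 ± 13.4 FPKM in the DAC group (SD, n = 3 each), with overlap. OAT had a log2 fold change of 0.43, and it was an upregulated DEG without DAC replicate 6 (0.66, unadjusted P = 0.0365 and adjusted P = 0.522 from limma). MTRR, which reactivates methionine synthase and was chosen after its values were seen, had a log2 fold change of 0.38 (SE 0.17, unadjusted P = 0.0546 and adjusted P = 0.592 from limma). MTRR was an upregulated DEG in 3 of 14 alternatives, when sham replicate 2 (0.51) or DAC replicate 6 (0.50) was omitted and when the mitochondrially encoded genes were removed (0.42). Of further adenylate and creatine kinases, AK6 and AK8 were tested and neither was a DEG. AK6 was at 3.05 ± 0.464 FPKM in the sham group and 2.94 ± 0.373 FPKM in the DAC group (SD, n = 3 each). AK7 was too low to be tested. AK5, AK9 and the ubiquitous mitochondrial creatine kinase were looked up by symbol and were not found in the deposited table.

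**Figure D4:**
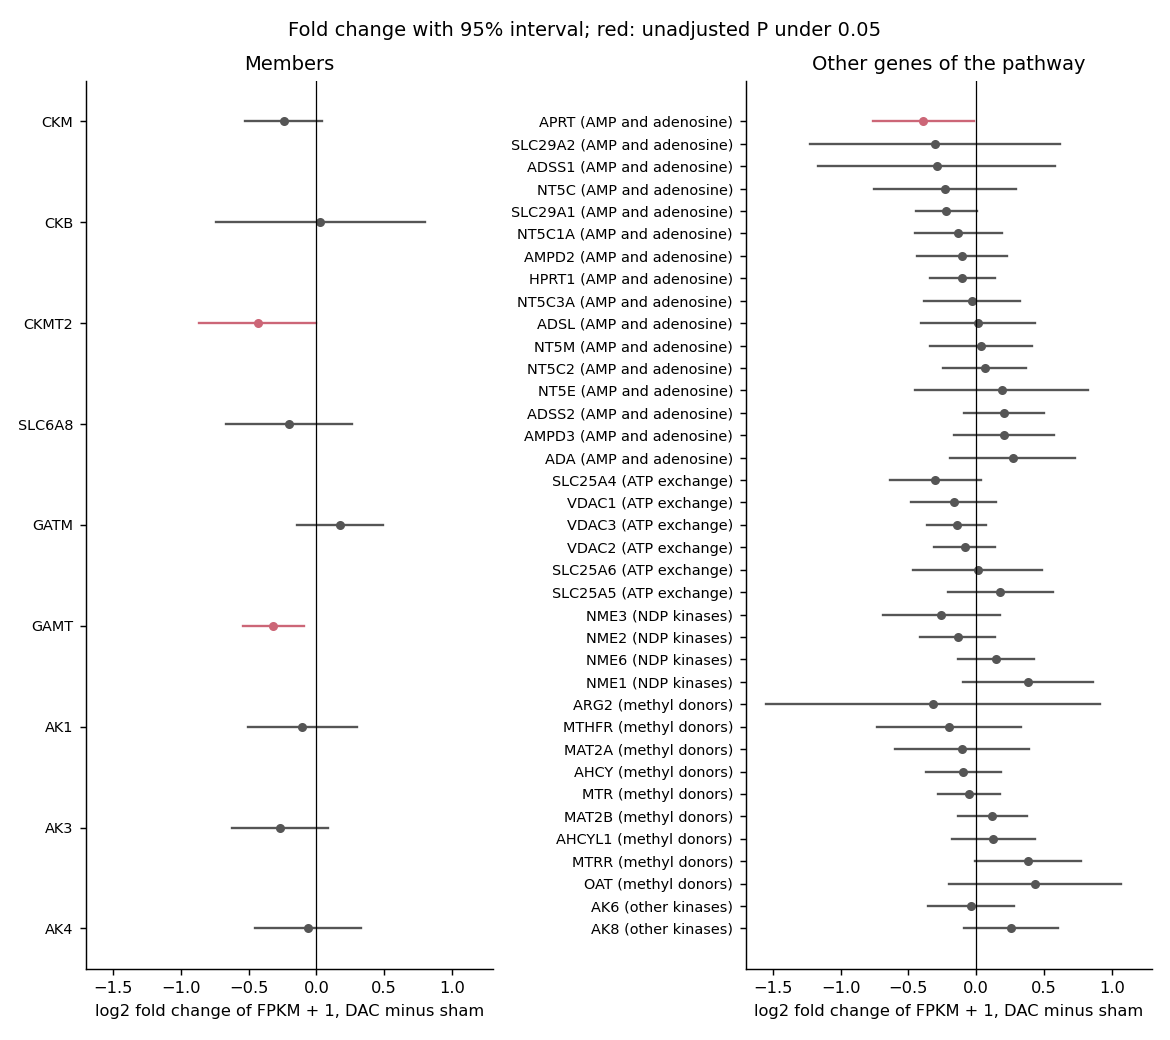
Log2 fold change (horizontal axis, DAC minus sham, log2(FPKM + 1) scale) with its 95% interval from limma for the 9 members (left) and 37 other genes of the pathway (right), with DEGs in red. The intervals of GAMT, CKMT2 and APRT lie below 0, that of CKMT2 only just.

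The genes whose pattern over the 6 minipigs was nearest to that of a member were found by the root mean square (RMS) difference of log2(FPKM + 1), each gene centred on its own mean. For GAMT they were MRPL28, a mitochondrial ribosomal protein gene (RMS difference 0.014), ATP9A (0.026) and the unnamed gene ENSSSCG00000035856 (0.029), whereas GAMT itself varied by 0.16 on this scale. For CKM they were RANBP6 (0.040), GDI2 (0.044) and PHTF2 (0.049), against 0.16 for CKM itself. For CKMT2 they were the unnamed gene ENSSSCG00000038475 (0.061), TRAPPC5 (0.081) and MGST3 (0.082), against 0.31 for CKMT2 itself. No member was among the 3 nearest genes of another member. With 11029 genes and 6 libraries, close matches of this kind are a description only.

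In bulk tissue, fewer cardiomyocytes and less of an RNA per cardiomyocyte cannot be told apart. The 9 cardiomyocyte markers found of 12 listed, from MYL2 at a mean of 4607 FPKM to RYR2 at 320 FPKM, included 1 DEG (RYR2, lower in the DAC group), and none was at 0. Their summed FPKM was between 14899 and 15515 in the sham libraries and between 14088 and 16979 in the DAC libraries. MYL2 and TNNT2 (mean 4538 FPKM) were the largest in this sum. ACTC1, also in it, ran from 716 FPKM in sham replicate 3 to 2039 FPKM in DAC replicate 6. Per 1000 FPKM of these markers, GAMT was at 0.540 to 0.571 FPKM in the sham group and 0.399 to 0.435 FPKM in the DAC group, without overlap. CKMT2, whose groups overlapped in FPKM, was at 7.58 to 8.89 FPKM in the sham group and 4.64 to 7.36 FPKM in the DAC group per 1000 FPKM of the markers, without overlap. Its highest DAC value on this scale was that of DAC replicate 6, where ACTC1 was highest. In FPKM, CKMT2 was at 120 in DAC replicate 6 and 118 in sham replicate 2, so its separation here rests on the marker sum. That sum was 16291 FPKM in DAC replicate 6 and 15515 FPKM in sham replicate 2, with ACTC1 at 2039 and 1150 FPKM. The part of ACTC1 in this separation was not tested. AK3, whose groups overlapped in FPKM, was at 0.828 to 1.08 FPKM in the sham group and 0.686 to 0.743 FPKM in the DAC group on this scale, without overlap. CKM overlapped on this scale, at 27.5 to 28.3 FPKM and 19.0 to 29.6 FPKM. Over all genes tested, 9.83% lay wholly lower in the DAC group per FPKM of these markers. Of 10 skeletal muscle markers, 2 were found, the actin gene ACTA1, which the heart also expresses, and MYBPC2 at a mean of 0.668 FPKM, with a summed range of 1822 to 2278 FPKM in the sham group and 1519 to 2405 FPKM in the DAC group.

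Fibroblast markers moved with the groups only in part. Of 8 markers, from COL3A1 at the highest to POSTN at the lowest mean FPKM, 5 were upregulated DEGs and none was at 0. These 5 were COL1A1, COL1A2, COL3A1, LUM and POSTN. DCN (log2 fold change -0.012), TCF21 (-0.022) and PDGFRA (0.24) were not DEGs and overlapped between the groups. The summed FPKM of the 8 markers was between 482 and 555 in the sham libraries and between 688 and 780 in the DAC libraries. The part of this in the lower GAMT and CKMT2 levels was not tested. The other summed markers overlapped between the groups. Endothelial markers, from VWF down to EMCN, held 2 upregulated and 2 downregulated DEGs of 8 and summed to 137 to 186 FPKM in the sham libraries and 117 to 176 FPKM in the DAC libraries. Smooth muscle markers (DES to LMOD1) held 1 DEG in each direction of 8, with sums of 1054 to 1108 FPKM and 1046 to 1393 FPKM. Most of this sum is DES (mean 939 FPKM), whose protein desmin the authors count among the myofilament proteins. The sum is therefore not a measure of smooth muscle alone. Leukocyte markers (CSF1R to CD3E) held 1 downregulated DEG of 6 tested, with sums of 47.2 to 50.2 FPKM and 41.6 to 53.9 FPKM. Of the red cell markers, HBB and ALAS2 were found, with sums of 11.2 to 38.5 FPKM and 5.86 to 38.2 FPKM. HBB was not a DEG, and ALAS2, too low to be tested, was listed at 0 in DAC replicate 5.

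The summed FPKM of the 9 members took 0.243%, 0.234% and 0.249% of each sham library and 0.184%, 0.202% and 0.207% of each DAC library. Counted without the mitochondrially encoded genes, the shares were 0.313% to 0.333% in the sham group and 0.253% to 0.301% in the DAC group. The groups did not overlap on either scale, and CKM supplies most of the sum. With the mitochondrially encoded genes removed and the remaining FPKM brought to equal sums, the log2 fold change was -0.28 for GAMT, -0.39 for CKMT2 and -0.20 for CKM, and GAMT alone was a DEG (unadjusted P = 0.0240, adjusted P = 0.576 from limma). Over all genes, that rescaling turned 358 upregulated and 581 downregulated DEGs into 502 and 408.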

How the data were processed

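RNA from ventricular tissue of 6 minipigs was made into libraries with a NEBNext Ultra kit, and paired-end reads came from an Illumina HiSeq instrument. The authors deposited 1 table of FPKM with a column for each minipig, and no samples were pooled. HISAT2 and the build susScr11 appear in the submitters' processing notes without a version or a role. The quantification program, its handling of shared reads and any use of strand are not given in the sources used here. No listed gene stays under 0.500 FPKM in all samples. Read depth is unknown, so the precision of a single value cannot be given. The SDs and SEs describe the variation between minipigs.

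Genes without a symbol in the table (520) were named from a table of gene identifiers. A gene was tested if 3 or more of the 6 samples reached 1 FPKM, which all 9 members did. After a pseudocount of 1 was added, log2 values were compared with the linear model and moderated test of limma 3.58.1 in R 4.3.3, letting the prior variance follow mean expression. A DEG had an unadjusted P under 0.05. An exact two-sided permutation test over the 20 assignments of the 6 samples was run beside it for each member. Tables and figures used Python 3.11.15, pandas 2.3.3 and matplotlib 3.10.9. The steps were tested on simulated data. The alternatives were other filters, another pseudocount, other scalings, a variance of each gene on its own, sample weights and each sample left out.

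The members and the lists (other kinases, ADP/ATP exchange, nucleoside diphosphate kinases, AMP and adenosine handling, methyl donors, and markers of cardiomyocytes, skeletal muscle, fibroblasts, endothelium, smooth muscle, leukocytes and red cells) were chosen with earlier results of these data known. The text names every member, each DEG or else the most abundant gene of a pathway list, the 3 genes most like CKM and each member that was a DEG, and the highest and lowest gene of a marker list. Scaling to cardiomyocyte markers and the GAMT to GATM ratio were added after seeing the data. A marker list and a pathway gene of the design are not reported here.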

Additional observations from a re-analysis of the deposited data

How the results depend on the processing

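The number of DEGs over all genes was 939 in all 6 minipigs, 579 with a minimum of 5 FPKM and between 600 (without sham replicate 1) and 1029 with 1 minipig left out. No gene had an adjusted P under 0.05 from limma, except for 1 gene when sham replicate 3 was omitted and 1 when DAC replicate 6 was. The number of members that were DEGs was 2, and it was 1 (GAMT) with a minimum of 5 FPKM, a pseudocount of 0.1, quantile normalization, mitochondrially encoded genes left out, the variance of each gene on its own and sample weights, and between 1 and 3 with 1 minipig left out. The member lost was CKMT2 in each case, and CKM and CKB were added without DAC replicate 5. Of the other pathway genes, 1 was a DEG (APRT), against 2 with no filter (APRT and SLC29A3), 0 with quantile normalization, 2 with the variance of each gene on its own (VDAC3 and SLC29A1) and between 0 and 4 with 1 minipig left out, the 4 being SLC25A4, NME3, ADSS1 and NT5C without DAC replicate 5. Where the number stayed at 1, the gene was MTRR with mitochondrially encoded genes left out and without sham replicate 2, and SLC29A1 with sample weights. Without DAC replicate 6 the DEGs were MTRR and OAT. Scaling to cardiomyocyte markers gave 237 upregulated and 629 downregulated DEGs, and the log2 fold change of CKB was then -0.014. With 1 minipig left out, the log2 fold change ran from -0.18 to 0.42 for CKB, from -0.26 to 0.014 for AK1 and from -0.21 to 0.027 for AK4. GAMT, CKM, CKMT2, AK3, SLC6A8 and GATM kept their direction under every alternative in which they were tested. The cause of these shifts was not tested. In a fit that leaves out 1 minipig, the remaining pair of that group shares the spread estimated over both groups. No paired analysis was possible because the replicate numbers 1 to 3 and 4 to 6 are not shared between the groups. Without read numbers, the limits that depth sets on AK4 and GATM, both under 2 FPKM, cannot be given.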
